A study of Homo sapiens with 9 samples.

Results

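The clustered protocadherins are a family of cell surface adhesion genes that lie side by side on chromosome 5. They were taken from the count table by symbol, as PCDHA, PCDHAC, PCDHB, PCDHGA, PCDHGB or PCDHGC followed by a number. This gave 54 rows, of which 1 (PCDHA14) is annotated as a pseudogene and was dropped, leaving 53 genes of 60649 listed. There are 13 alpha, 16 beta, 12 gamma A, 7 gamma B and 5 C-type genes, the last being PCDHAC1, PCDHAC2, PCDHGC3, PCDHGC4 and PCDHGC5. RNA was sequenced from the human cell line MDA-MB-231, which derives from a triple-negative breast cancer, in 9 libraries. The control group carried the vector pLKO-GFP (3 libraries), and the other groups carried a short hairpin RNA against AHR, either shAHR#2 (3 libraries) or shAHR#3 (3 libraries). AHR encodes the aryl hydrocarbon receptor, a ligand-activated transcription factor. All groups were infected with lentivirus, selected with puromycin and kept as pools of surviving cells, and all are labelled as proliferating. The comparisons ask how the level of each protocadherin differed between cells with either hairpin and control cells, and between the hairpins.

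Clustered protocadherins are best known from the nervous system, where each neuron expresses a small, partly random choice of them and the proteins on touching cells bind like with like. Each alpha and gamma gene has its own large first exon, with its own promoter, which codes for the extracellular cadherin repeats and the membrane span; it is spliced to constant exons shared by the alpha or by the gamma cluster. Beta genes consist essentially of 1 large exon and have no constant part. Promoter choice is known to depend on DNA methylation, on the architectural protein CTCF and the cohesin ring that bring a promoter to a distant enhancer, and on the chromatin protein SMCHD1. C-type genes are an exception in neurons, where they are expressed without random choice.

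Libraries held from 15991396 to 20374460 counts. Levels are given as CPM, counts per 1000000 counts of the library after correction for library composition, and a log2 fold change is the fitted log2 ratio of 2 groups, printed with its standard error. A gene was called where the adjusted p of edgeR's quasi-likelihood test, corrected for 14274 tested genes by Benjamini-Hochberg, was under 0.05. Overlap of the libraries of 2 groups is given as a description of single genes. A small adjusted p tends to go with its absence, and its share over all tested genes is not given here. Nothing in the labels says that replicates were separate cultures, so these p-values measure the spread between libraries, which may be technical. AHR was at 114, 118 and 121 CPM in the control libraries, at 42.5, 40.4 and 41.9 CPM with shAHR#2, and at 46.3, 52.1 and 44.5 CPM with shAHR#3, so the labelled knockdowns were seen in every library. The label of mammary epithelial cells was checked against markers. KRT8 and KRT18, keratins of simple epithelia, averaged 284 and 304 CPM in the control group, against 2634 CPM for the mesenchymal filament VIM. The other epithelial markers averaged 229 CPM (KRT7), 99.8 (KRT19), 6.62 (EPCAM), 0.909 (CDH1), 0.034 (KRT14) and 0 (KRT5) there, so epithelial markers were high and low. The other mesenchymal markers averaged 814 (FN1), 125 (ZEB1) and 0.351 CPM (CDH2). The estrogen receptor gene ESR1 had at most 4 counts in any library and the progesterone receptor gene PGR had 0, while ERBB2 averaged 62.4 CPM in the control group. Of 6 neuronal markers 1 was tested, SYT1, which averaged 6.56 CPM in the control group. STMN2 and DCX, which mark young neurons, had 0 counts in every library. In bulk RNA, fewer cells that express a gene and less RNA per cell cannot be told apart.

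Of the 53 genes, 23 had enough counts to be tested: 10 beta, 7 gamma A, 5 gamma B and 1 C-type gene. The alpha cluster was close to silent. Its 13 genes had at most 3 counts in any library, 8 of them had 0 counts in every library, and none was tested. Among the untested beta genes, PCDHB1 had 0 counts throughout and PCDHB3, PCDHB4, PCDHB5 and PCDHB6 had at most 4 counts in any library. A count of 0 still allows up to 3 counts in a library, so expression under that level was not detectable at this depth.

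Expression in the beta and gamma clusters rested on a few genes. Per kilobase of exon that no other gene model shares, the highest levels in the control group were 6.28 ± 0.382 CPM (SD, n = 3) for PCDHGB2, 4.44 ± 0.442 for PCDHGB1, 3.17 ± 0.258 for PCDHB14 and 2.87 ± 0.273 for PCDHB13. PCDHB14 and PCDHB13 differed by about the spread of their libraries. The value of PCDHGB1 per kilobase depends on the strand setting, which is not known. Of its exon bases 2041 are unshared on either strand and 2595 on its own strand. PCDHGC3 followed at 1.88 ± 0.102 and PCDHB11 at 1.69 ± 0.282 CPM per kilobase, which did not differ beyond their spread. The other tested genes lay between 0.177 CPM per kilobase (PCDHB7) and 1.16 CPM per kilobase (PCDHB10). Gene models of the gamma cluster overlap, and 27.5% (PCDHGA6) to 64.4% (PCDHGB4) of the exon bases of gamma A and gamma B genes belong to another model as well. How reads in shared exons were counted is not given in the sources used here, so gamma counts are taken as reads mainly of the variable first exon. Beta genes are also similar in sequence. Of the 50-base windows of PCDHB8 outside shared exons, 45.3% occur elsewhere in the region, compared with 33.4% for PCDHB10 and 0% for PCDHGC3, so that counts of PCDHB8 and PCDHB10 could be split between near copies.

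The promoters of a cluster hold shared runs of letters, and the runs of the clusters partly overlap. A RefSeq promoter (GRCh38.p14, plus strand) was found for 47 of the 53 genes. The letters GTGGCGC and CGCTGT were searched on both strands of the 250 bases before the start. They were picked as shared among these promoters, so their shares beside those of all promoters are no test. The letters GTGGCGC were found in 12 of 14 beta promoters and in no other member's promoter, compared with 4.31% of all 27305 promoters. The letters CGCTGT were found in 10 of 11 gamma A, 5 of 7 gamma B, 3 of 4 C-type, 6 of 11 alpha and 1 of 14 beta promoters (PCDHB3, where they overlap the beta letters), compared with 8.70% of all promoters. The windows below hold the match in capitals with 25 bases on each side. They are those of the most highly expressed beta genes that hold the letters, a beta gene that was not called with either hairpin (PCDHB16), and gamma genes that were called lower with 1 hairpin (PCDHGA1, PCDHGA6), with both (PCDHGB1, PCDHGB2) or with neither (PCDHGC3).
PCDHB14, chr5:141223250-141223306: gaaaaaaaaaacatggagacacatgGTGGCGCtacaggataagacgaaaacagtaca
PCDHB13, chr5:141213852-141213908: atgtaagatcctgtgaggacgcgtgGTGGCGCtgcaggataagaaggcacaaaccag
PCDHB12, chr5:141208630-141208686: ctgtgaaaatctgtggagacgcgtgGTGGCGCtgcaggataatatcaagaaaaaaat
PCDHB10, chr5:141192286-141192342: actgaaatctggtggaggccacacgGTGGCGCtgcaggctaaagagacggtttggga
PCDHB16, chr5:141182297-141182353: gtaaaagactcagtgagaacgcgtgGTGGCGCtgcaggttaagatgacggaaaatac
PCDHGA1, chr5:141330394-141330449: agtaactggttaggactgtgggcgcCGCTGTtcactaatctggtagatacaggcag
PCDHGA6, chr5:141373826-141373881: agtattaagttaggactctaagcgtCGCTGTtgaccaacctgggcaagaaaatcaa
PCDHGB1, chr5:141350016-141350071: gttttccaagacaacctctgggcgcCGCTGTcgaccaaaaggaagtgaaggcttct
PCDHGB2, chr5:141359912-141359967: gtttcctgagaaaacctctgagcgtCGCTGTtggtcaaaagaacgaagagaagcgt
PCDHGC3, chr5:141475871-141475926: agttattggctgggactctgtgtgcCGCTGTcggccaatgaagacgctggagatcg
The match is a description of letters. Every window above holds the letters CGCT, within the capitals or running on from them. The split of the runs between clusters therefore depends in part on where the letters were cut. It is present in promoters of genes that were called lower and of genes that were not.

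Among the beta, gamma and C-type classes, the summed level was furthest from control in the beta cluster with shAHR#2 and in the gamma B genes with shAHR#3. All 16 beta genes together were at 49.1, 48.9 and 51.2 CPM in the control libraries, at 15.3, 11.9 and 17.8 CPM with shAHR#2, and at 44.2, 43.4 and 46.0 CPM with shAHR#3. The shAHR#2 libraries lay far below both other groups, and the shAHR#3 libraries lay just below the control libraries without overlap. Gamma A genes summed to 15.2, 9.59 and 14.8 CPM in controls, to 6.81, 8.35 and 7.97 CPM with shAHR#2, and to 13.6, 12.7 and 13.2 CPM with shAHR#3. Only the shAHR#2 libraries were outside the control range. Gamma B genes summed to 27.0, 27.0 and 30.9 CPM in controls, to 18.1, 17.9 and 17.1 CPM with shAHR#2, and to 21.5, 18.6 and 18.5 CPM with shAHR#3. Here the libraries of both hairpins lay below every control library. C-type genes, almost all of it PCDHGC3, summed to 6.66 ± 0.310, 6.47 ± 1.06 and 7.04 ± 0.312 CPM (SD, n = 3) and the groups overlapped. As a ratio of group means, shAHR#2 stood at 0.303 of control for beta, 0.583 for gamma A, 0.624 for gamma B and 0.972 for C-type genes. With shAHR#3 the ratios were 0.896, 0.997, 0.689 and 1.06. These sums carry no test.

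**Figure D1:**
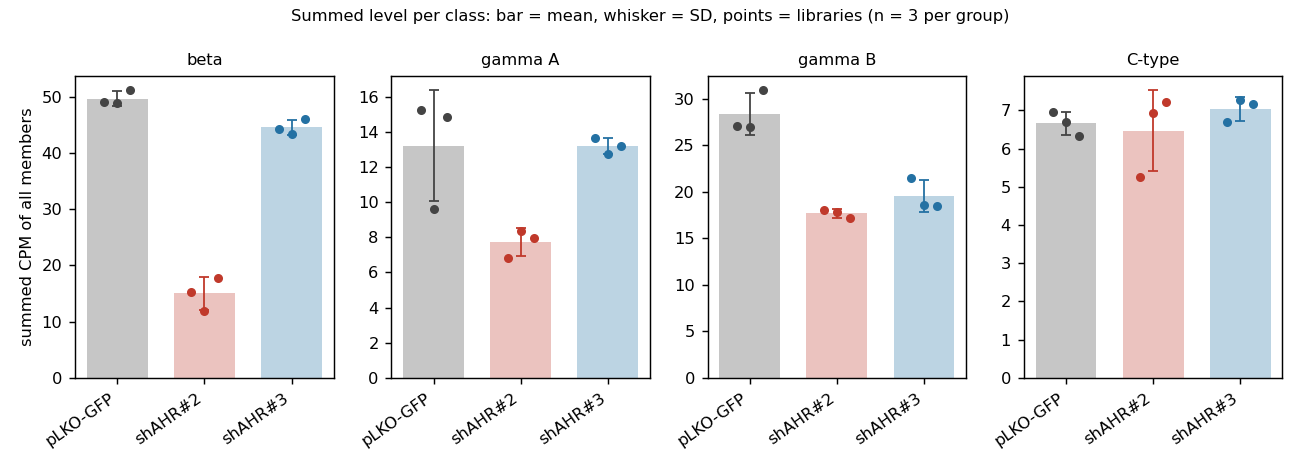
Summed CPM (vertical axes, each from 0) of all beta, gamma A, gamma B and C-type protocadherins in the 3 groups; bars are group means, whiskers the SD and points the 3 libraries. The beta sum is 49.7 CPM in controls, 15.0 CPM with shAHR#2 and 44.6 CPM with shAHR#3, whereas the C-type sums overlap.

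With shAHR#2, 15 of the 23 tested protocadherins were called lower than in control cells (8 beta, 4 gamma A and 3 gamma B) and 0 were called higher. Over all tested genes 33.2% were called lower and 32.6% higher. The median log2 fold change of the 23 was -1.31 and that of all tested genes 0.00 to 2 decimals (-0.0032). By class the median was -1.87 in the beta, -1.15 in the gamma A and -0.66 in the gamma B genes. Beside the count of 0 higher in edgeR, 0 genes were higher at an unadjusted p under 0.05 and 0 in DESeq2.

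PCDHB13 and PCDHB14, like the other beta proteins, are single-pass membrane proteins with extracellular cadherin repeats and a short cytoplasmic end. PCDHB13 was at 12.9, 15.5 and 15.1 CPM in controls and at 4.56, 3.08 and 4.05 CPM with shAHR#2 (log2 fold change -1.89 ± 0.13 SE, adjusted p = 6.62e-16). PCDHB14 was at 14.7, 12.7 and 12.96 CPM in controls and at 2.15, 1.09 and 3.10 CPM with shAHR#2 (log2 fold change -2.66 ± 0.16, adjusted p = 4.11e-17). In both genes the highest library with the hairpin was far below the lowest control library. PCDHB11 went from 8.08, 5.84 and 6.58 CPM to 1.61, 1.80 and 2.28 CPM (log2 fold change -1.85 ± 0.18, adjusted p = 2.22e-11). PCDHB12, which lies between PCDHB11 and PCDHB13, went from 3.39, 3.05 and 2.73 CPM to 0.590, 0.514 and 0.633 CPM (log2 fold change -2.38 ± 0.27, adjusted p = 8.34e-10). PCDHB10 went from 3.11, 3.65 and 4.56 CPM to 1.18, 0.899 and 2.21 CPM (log2 fold change -1.41 ± 0.24, adjusted p = 3.16e-06). None of these 3 genes overlapped between the groups, although PCDHB10 varied more between the shAHR#2 libraries than the others did. PCDHB9, the neighbour of PCDHB10, had a log2 fold change of -1.44 ± 0.27 (adjusted p = 1.81e-05), also without overlap.

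The largest fitted falls of the beta cluster were in PCDHB7 and PCDHB15, which were weakly expressed. Given their standard errors they were not beyond that of the highly expressed PCDHB14 (-2.66 ± 0.16). Both had enough counts to be tested only through libraries of the other groups. Low genes could thus enter mainly where they were higher without shAHR#2, so these falls are partly selected by the filter. PCDHB7 had 14, 8 and 13 counts in the control libraries and 1 count in each shAHR#2 library (log2 fold change -3.21 ± 0.70, adjusted p = 0.000126). The ratio of the summed counts, 3 against 35 and corrected for library size, was 0.0985 with a 95% interval from 0.0194 to 0.312 (exact binomial, counting error only). PCDHB15, the last gene of the cluster, had 15, 21 and 23 counts in controls and 1, 1 and 5 counts with shAHR#2 (log2 fold change -2.81 ± 0.53, adjusted p = 1.50e-05). Its count ratio was 0.136 with an interval from 0.0525 to 0.299. Neither gene overlapped between the groups, and the fitted values rest on few reads. PCDHB2, too low to be tested, had 7, 8 and 3 counts in controls and 0, 1 and 0 with shAHR#2.

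Not every beta gene was lower with this hairpin. PCDHB8 was at 1.07, 1.80 and 1.92 CPM in controls and at 2.36, 1.86 and 2.47 CPM with shAHR#2 (log2 fold change 0.47 ± 0.24, adjusted p = 0.0878), and PCDHB16 was at 1.64, 2.00 and 2.28 CPM against 1.98, 1.73 and 1.52 CPM (log2 fold change -0.17 ± 0.24, adjusted p = 0.553). Both overlapped between the groups and neither was called. The 2 genes lie next to each other, between PCDHB7 and PCDHB9, which were both called lower.

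**Figure D2:**
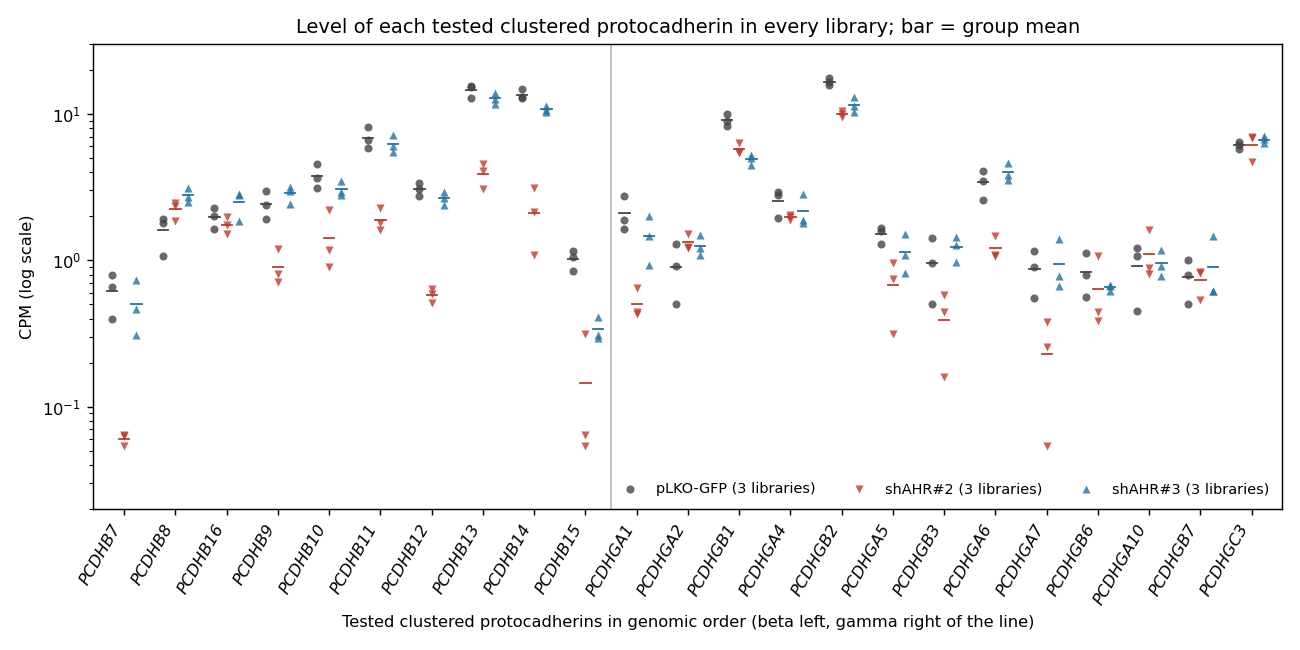
CPM on a log axis (vertical) of the 23 tested protocadherins in genomic order (horizontal) in each of the 9 libraries; circles are pLKO-GFP, downward triangles shAHR#2, upward triangles shAHR#3, and short bars the group means. In PCDHB13 and PCDHB14 the shAHR#2 triangles lie between 1.09 and 4.56 CPM and the control circles between 12.7 and 15.5 CPM, whereas in PCDHB8, PCDHB16 and PCDHGC3 the circles and downward triangles overlap.

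In the gamma cluster the genes called lower with shAHR#2 were PCDHGA1, PCDHGA5, PCDHGA6, PCDHGA7, PCDHGB1, PCDHGB2 and PCDHGB3. PCDHGA6 was at 3.50, 2.60 and 4.10 CPM in controls and at 1.07, 1.09 and 1.46 CPM with shAHR#2 (log2 fold change -1.49 ± 0.23, adjusted p = 7.56e-07). PCDHGA1, the first gene of the cluster, was at 2.77, 1.65 and 1.87 CPM against 0.429, 0.642 and 0.443 CPM (log2 fold change -2.04 ± 0.35, adjusted p = 3.55e-06). Both were well separated between the groups. PCDHGB2, the most highly expressed member per length, was at 16.4, 15.6 and 17.6 CPM in controls and at 10.5, 9.57 and 9.93 CPM with shAHR#2 (log2 fold change -0.73 ± 0.10, adjusted p = 3.20e-08). PCDHGB1 was at 8.24, 8.89 and 10.0 CPM against 5.52, 6.29 and 5.38 CPM (log2 fold change -0.66 ± 0.12, adjusted p = 1.50e-05). These 2 did not overlap either, but their fold changes were smaller than those of the called beta genes.

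The remaining called gamma genes were low. PCDHGA5 had a log2 fold change of -1.15 ± 0.35 (adjusted p = 0.00426) and did not overlap between the groups. PCDHGA7 had 16, 11 and 23 counts in controls and 1, 4 and 6 counts with shAHR#2 (log2 fold change -1.95 ± 0.52, adjusted p = 0.0014), a count ratio of 0.253 with an interval from 0.119 to 0.492. PCDHGB3 had 17, 10 and 28 counts against 3, 9 and 7 counts (log2 fold change -1.31 ± 0.45, adjusted p = 0.0108), a count ratio of 0.397 with an interval from 0.222 to 0.679. The CPM ranges of PCDHGB3 overlapped, and it was no longer called without control replicate 3 (log2 fold change -0.90) or without shAHR#2 replicate 1 (log2 fold change -0.90). PCDHGA4 was at 2.94, 1.95 and 2.79 CPM against 1.88, 2.05 and 1.96 CPM and was not called (log2 fold change -0.38 ± 0.23, adjusted p = 0.156). PCDHGA2 was higher on average, at 1.30, 0.499 and 0.911 CPM against 1.23, 1.22 and 1.52 CPM, and was not called (log2 fold change 0.56 ± 0.33, adjusted p = 0.133). Without control replicate 1 its log2 fold change was 0.90 and it was called higher. The last 4 tested genes of the region in order, PCDHGB6, PCDHGA10, PCDHGB7 and PCDHGC3, were not called. PCDHGB6 had a log2 fold change of -0.34 ± 0.40 (adjusted p = 0.465), PCDHGA10 of 0.26 ± 0.36 (adjusted p = 0.553) and PCDHGB7 of -0.08 ± 0.41 (adjusted p = 0.87); each had between 6 and 30 counts in every library.

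With shAHR#3, 4 of the 23 tested protocadherins were called lower than in controls (PCDHB14, PCDHB15, PCDHGB1 and PCDHGB2), 1 was called higher (PCDHB8) and 18 were not called. Over all tested genes 27.5% were called lower and 26.9% higher. The median log2 fold change of the 23 was -0.19. It was -0.19 in the beta, 0.08 in the gamma A and -0.34 in the gamma B genes. The 4 genes called lower were also called lower with shAHR#2; both comparisons use the same control libraries.

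PCDHGB1 had the lowest adjusted p with shAHR#3, at 5.25, 4.50 and 5.03 CPM against 8.24, 8.89 and 10.0 CPM in controls (log2 fold change -0.88 ± 0.12, adjusted p = 1.43e-07). PCDHGB2 was at 13.1, 11.3 and 10.4 CPM with shAHR#3 (log2 fold change -0.52 ± 0.09, adjusted p = 8.90e-06). All 3 libraries were below all control libraries in both genes. PCDHB15 had 6, 8 and 6 counts with shAHR#3 against 15, 21 and 23 in controls (log2 fold change -1.59 ± 0.42, adjusted p = 0.00147). PCDHB14 was at 11.3, 10.6 and 10.4 CPM (log2 fold change -0.32 ± 0.12, adjusted p = 0.0175), a much smaller difference than its -2.66 with shAHR#2. Its groups did not overlap, but it was no longer called without control replicate 1 (log2 fold change -0.26) or without shAHR#3 replicate 3 (log2 fold change -0.29). PCDHB8 was the member called higher, at 2.73, 2.51 and 3.12 CPM against 1.07, 1.80 and 1.92 CPM in controls (log2 fold change 0.79 ± 0.23, adjusted p = 0.00342), without overlap.

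Of the 15 genes called lower with shAHR#2, 11 were not called with shAHR#3. PCDHB13 was at 12.7, 11.7 and 13.9 CPM (log2 fold change -0.19 ± 0.10, adjusted p = 0.103). It was called lower without control replicate 1 (log2 fold change -0.26) or without shAHR#3 replicate 3 (log2 fold change -0.26). PCDHB11 was at 6.02, 5.48 and 7.13 CPM (log2 fold change -0.13 ± 0.14, adjusted p = 0.453) and PCDHB12 at 2.93, 2.66 and 2.39 CPM (log2 fold change -0.20 ± 0.19, adjusted p = 0.409). In each of these the ranges of the groups overlapped. PCDHB10 had a log2 fold change of -0.30 ± 0.20 (adjusted p = 0.201), PCDHB7 of -0.27 ± 0.43 (adjusted p = 0.614) and PCDHB9 of 0.23 ± 0.21 (adjusted p = 0.386). In the gamma cluster PCDHGA6 was at 3.55, 3.84 and 4.59 CPM (log2 fold change 0.24 ± 0.18, adjusted p = 0.28). PCDHGA1 was at 0.926, 2.00 and 1.46 CPM (log2 fold change -0.51 ± 0.27, adjusted p = 0.117) and was called lower without shAHR#3 replicate 2 (log2 fold change -0.79). The other tested members (PCDHB16, PCDHGA2, PCDHGA4, PCDHGA5, PCDHGA7, PCDHGA10, PCDHGB3, PCDHGB6 and PCDHGB7) had log2 fold changes between -0.41 (PCDHGA5) and 0.50 (PCDHGA2), overlapped between the groups and were not called. PCDHB2 had 0, 0 and 1 count with shAHR#3, as low as with shAHR#2.

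**Figure D3:**
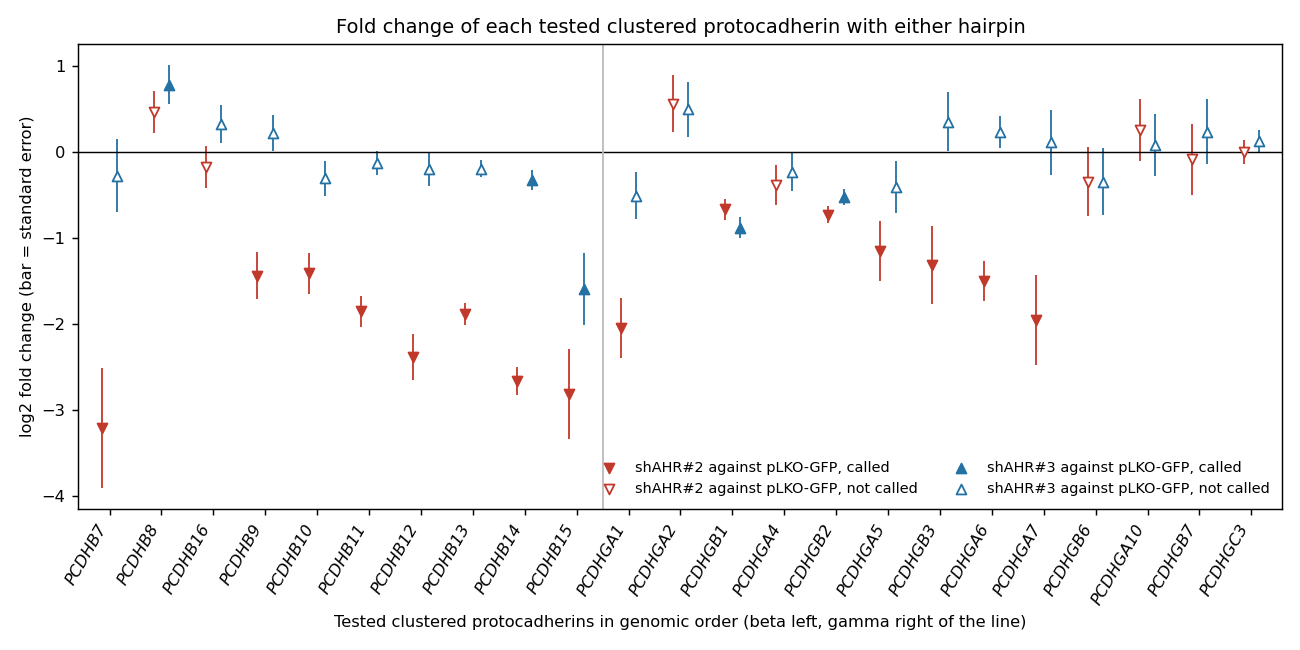
Log2 fold change against pLKO-GFP (vertical axis; whiskers are standard errors) of the 23 tested protocadherins in genomic order, downward triangles for shAHR#2 and upward triangles for shAHR#3; filled symbols are called at an adjusted p under 0.05. With shAHR#2, 15 filled symbols lie between -0.66 and -3.21, while with shAHR#3 only 5 symbols are filled and the lowest is PCDHB15 at -1.59.

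The hairpins were also compared with each other, which tests the difference directly and uses no control library in the contrast. Of the 23 genes, 11 were called higher with shAHR#3 than with shAHR#2 and 0 were called lower, where 21.9% of all tested genes were called higher and 20.4% lower. Among the other tested genes of chromosome 5, 52.13% were called higher and 8.21% lower, so the members' share of 47.83% higher was not above that of their chromosome. The median log2 difference of the 23 was 1.10, with 1.68 in the beta, 0.74 in the gamma A and 0.21 in the gamma B genes. Beside the count of 0 lower in edgeR, 0 genes were lower at an unadjusted p under 0.05 and 0 in DESeq2. The 11 were PCDHB7, PCDHB9, PCDHB10, PCDHB11, PCDHB12, PCDHB13, PCDHB14, PCDHGA1, PCDHGA6, PCDHGA7 and PCDHGB3. All were among the genes called lower with shAHR#2. Both comparisons use the same shAHR#2 libraries, so this overlap is partly built in. Its share over all tested genes is not given here.

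PCDHB14 had the smallest adjusted p of the 23 in that comparison, with a log2 difference of 2.34 ± 0.17 (adjusted p = 1.60e-14), followed by PCDHB13 with 1.70 ± 0.13 (adjusted p = 7.85e-14). PCDHB12 differed by 2.18 ± 0.28 (adjusted p = 2.46e-08) and PCDHGA6 by 1.73 ± 0.23 (adjusted p = 5.73e-08). In all 4 genes every shAHR#3 library was above every shAHR#2 library, which adds no separate support to genes named for their small adjusted p. PCDHB7 had the largest difference, 2.94 ± 0.72 (adjusted p = 0.00103), with 9, 6 and 15 counts against 1 count in each library. The genes called lower with both hairpins against control behaved differently from each other. PCDHGB1 differed between the hairpins by -0.22 ± 0.14 (adjusted p = 0.216), PCDHGB2 by 0.21 ± 0.10 (adjusted p = 0.103) and PCDHB15 by 1.22 ± 0.65 (adjusted p = 0.133), whereas PCDHB14 was called. PCDHGB2 was called higher with shAHR#3 without shAHR#3 replicate 3 (log2 difference 0.28), and PCDHB15 without shAHR#2 replicate 3 (log2 difference 2.40).

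Of the 5 C-type genes only PCDHGC3 had enough counts to be tested, and it was not called in any comparison. It had 114, 122 and 114 counts in controls, 87, 106 and 110 with shAHR#2 and 122, 137 and 137 with shAHR#3. The log2 fold change with shAHR#2 was 0.00 ± 0.14 (adjusted p = 0.99), that with shAHR#3 was 0.13 ± 0.13 (adjusted p = 0.437), and the groups overlapped in CPM. PCDHGC5 had 4, 12 and 9 counts in controls, 7, 0 and 2 with shAHR#2, and 4, 2 and 4 with shAHR#3. PCDHGC4 had at most 3 counts in any library, PCDHAC1 at most 4 counts, and PCDHAC2 had 0 in all. Of these genes the data show little more than that they were low. The untested gamma A and gamma B genes (PCDHGA3, PCDHGA8, PCDHGA9, PCDHGA11, PCDHGA12, PCDHGB4 and PCDHGB5) had at most 13 counts in any library.

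Because the members fell by different amounts, the make-up of the beta cluster shifted with shAHR#2. As a share of all beta counts in a library, PCDHB8 took 3.21% ± 0.885 (SD, n = 3) in controls, 14.9% ± 0.963 with shAHR#2 and 6.24% ± 0.509 with shAHR#3. PCDHB16 took 3.96% ± 0.568, 12.0% ± 3.11 and 5.57% ± 1.22. In contrast, PCDHB14 took 27.1% ± 2.54 in controls, 13.5% ± 4.14 with shAHR#2 and 24.2% ± 1.58 with shAHR#3. PCDHB13 had the largest mean share of the cluster in each group, at 29.2% ± 2.68, 26.1% ± 3.52 and 28.6% ± 1.56. Within gamma B, PCDHGB2 took 58.5% ± 1.87, 56.5% ± 2.48 and 59.1% ± 2.74 of the counts, shares that overlapped within their spread. Across all 53 genes the beta cluster held 50.8% ± 1.97 of the counts in controls, 31.9% ± 4.80 with shAHR#2 and 52.8% ± 1.40 with shAHR#3.

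Other genes of chromosome 5 were also lower with the hairpins. Of 633 other tested genes of this chromosome, 72.51% were called lower with shAHR#2 (median log2 fold change -0.47) and 60.98% with shAHR#3 (median -0.26). The share of tested protocadherins called lower was 65.22% with shAHR#2 and 17.39% with shAHR#3, so it was not above that of the chromosome in either comparison. The size of the changes differed. With shAHR#2, 13 of the 23 protocadherins were below the lower quartile of the other chromosome 5 genes (-0.77), and the same number had a log2 fold change of -1 or below, which 15.5% of the other genes of the chromosome had. With shAHR#3, 4 were below the lower quartile (-0.44) and 10 above the upper quartile (-0.06). Between the hairpins 52.13% of the other chromosome 5 genes and 47.83% of the protocadherins were called higher with shAHR#3. Here the other chromosome 5 genes had a median log2 difference of 0.20 and the protocadherins one of 1.10. The part of this chromosome-wide difference in the protocadherin values was not tested.

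The clusters span 726.8 kb (chromosome 5, 140786136 to 141512977 in GRCh38, GENCODE release 44), and 34 other tested genes lie inside or within 1 Mb of them. Their median log2 fold change was -0.36 with shAHR#2, with 22 called lower, and -0.22 with shAHR#3, with 17 called lower. Some of these neighbours had fold changes as large as those of called members. With shAHR#2 ZMAT2 and TAF7 were lower by more than PCDHGB1. The largest falls, named after their values were seen, were CD14 (-1.40 ± 0.41, adjusted p = 0.00348) and SLC35A4 (-1.32 ± 0.05, adjusted p = 8.18e-24). These were about the median of the tested members (-1.31), and 2 neighbours were called higher. CD14 had at most 21 counts in any library. The nearest tested gene before the alpha cluster is ZMAT2, which encodes a zinc finger protein of the spliceosome. It was at 77.1, 73.0 and 74.6 CPM in controls, at 44.7, 46.8 and 46.8 CPM with shAHR#2 and at 56.6, 60.7 and 59.8 CPM with shAHR#3. DIAPH1, a formin that assembles actin and the nearest tested gene after the gamma cluster, was at 299, 308 and 301 CPM in controls, at 231, 246 and 232 CPM with shAHR#2 and at 297, 295 and 300.3 CPM with shAHR#3. The log2 fold changes with shAHR#2 were -0.70 ± 0.05 (adjusted p = 4.34e-16) for ZMAT2 and -0.36 ± 0.03 (adjusted p = 9.54e-14) for DIAPH1. Between the beta and gamma clusters lies TAF7, a subunit of the general transcription factor TFIID, which was singled out after its values were seen. It fell by 0.80 on the log2 scale with shAHR#2 (SE 0.03, adjusted p = 4.93e-22) and by 0.25 with shAHR#3 (SE 0.03, adjusted p = 1.72e-08).

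**Figure D4:**
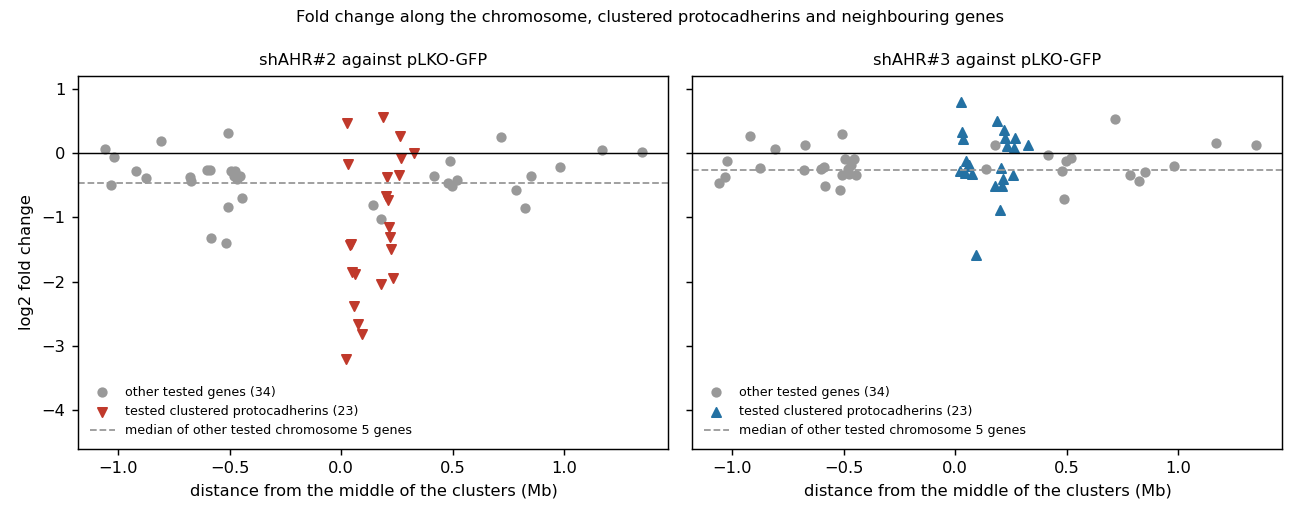
Log2 fold change against pLKO-GFP (vertical axis) by distance in Mb from the middle of the clusters (horizontal axis; first exon for protocadherins, middle of the gene for others), for shAHR#2 (left) and shAHR#3 (right); coloured triangles are the 23 tested protocadherins, grey points the 34 other tested genes, and the dashed line the median of 633 other tested chromosome 5 genes. With shAHR#2 the protocadherins reach down to -3.21 while the dashed line is at -0.47, and with shAHR#3 they lie on both sides of the dashed line at -0.26.

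A list of 30 genes known to act on protocadherin promoter choice or on chromatin at these clusters was all tested. With shAHR#2, 11 were called higher and 7 lower (median log2 fold change 0.02), and with shAHR#3, 9 were called higher and 8 lower (median 0.04). The background over all tested genes was 32.6% called higher and 33.2% called lower for shAHR#2, 26.9% called higher and 27.5% called lower for shAHR#3. Cohesin ring genes went both ways. SMC1A was called higher with both hairpins (log2 fold changes 0.40 and 0.13), and SMC3 (-0.56 and -0.29) and STAG2 (-0.10 and -0.20) lower. RAD21 was called higher with shAHR#3 only (0.11), and STAG1 with neither. Of the genes that load cohesin, NIPBL was lower with both (-0.58 and -0.37) and MAU2 higher with shAHR#2 only (0.13). Their part in the protocadherin values was not tested. CTCF, the architectural factor that binds protocadherin promoters, was at 104, 101 and 99.0 CPM in controls, at 109, 109 and 106 CPM with shAHR#2 and at 103, 109 and 106 CPM with shAHR#3. With shAHR#2 its log2 fold change of 0.10 ± 0.04 (adjusted p = 0.0155) was a call lost without control replicate 3, and with shAHR#3 it was 0.07 ± 0.04 (adjusted p = 0.0956). SMCHD1, a chromatin protein known to repress clustered protocadherins, was lower with both hairpins, by log2 fold changes of -0.16 ± 0.03 (adjusted p = 9.91e-05) and -0.35 ± 0.03 (adjusted p = 1.82e-11).

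Among the DNA methyltransferase and TET genes of the list, DNMT3B, TET1 and TET2 were called higher with both hairpins. DNMT3B, a methyltransferase that sets new methylation, was at 11.7, 13.1 and 14.7 CPM in controls, at 17.4, 15.5 and 15.7 CPM with shAHR#2 and at 23.5, 21.3 and 23.3 CPM with shAHR#3. It rose by 0.30 ± 0.09 (adjusted p = 0.00405) and 0.78 ± 0.08 (adjusted p = 4.48e-10) on the log2 scale, more with shAHR#3 than with shAHR#2 (log2 difference 0.48 ± 0.08, adjusted p = 9.66e-06). TET1, which starts the removal of methylation, rose by 1.09 ± 0.16 (adjusted p = 1.18e-07) and 0.68 ± 0.16 (adjusted p = 0.000436). Its relative TET2 rose less, by 0.16 ± 0.05 (adjusted p = 0.00613) and 0.20 ± 0.05 (adjusted p = 0.000996), and TET3 was not called with either hairpin. DNMT3A was not called with either hairpin (-0.16 ± 0.09, adjusted p = 0.125, and -0.03 ± 0.09, adjusted p = 0.83). DNMT1, which maintains methylation, rose by 0.08 ± 0.03 (adjusted p = 0.00537) with shAHR#2 and was not called with shAHR#3 (0.02 ± 0.03, adjusted p = 0.528). The part of these genes in the protocadherin values was not tested.

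Of 23 genes for proteins that bind clustered protocadherins or act after them, 21 were tested. With shAHR#2, 10 were called higher and 5 lower (32.6% and 33.2% of all tested genes), and with shAHR#3, 9 were called higher and 5 lower (26.9% and 27.5% of all tested genes). PTK2 encodes the focal adhesion kinase, a protein that gamma and alpha protocadherins are known to inhibit. Its RNA, which does not measure kinase activity, was at 235, 242 and 234 CPM in controls. It rose by 0.86 ± 0.03 (adjusted p = 1.14e-25) with shAHR#2 and 0.43 ± 0.03 (adjusted p = 6.89e-16) with shAHR#3. Its relative PTK2B went the other way, with log2 fold changes of -2.30 ± 0.21 (adjusted p = 4.51e-12) and -0.90 ± 0.17 (adjusted p = 2.03e-05). FYN, a Src family kinase, rose by 0.72 ± 0.06 (adjusted p = 2.86e-14) and 0.34 ± 0.06 (adjusted p = 2.24e-06). All 3 changed more with shAHR#2 than with shAHR#3 by the direct test (adjusted p = 3.22e-16, 5.60e-06 and 2.00e-07). They were named for the largest changes with either hairpin, so this order is partly selected and does not describe the list. CTNNB1, also on the list, rose more with shAHR#3 (0.35) than with shAHR#2 (0.12; adjusted p = 9.26e-10 by the direct test).

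Protocadherins and related large cadherins outside the clusters were called in both directions. Of 21 such genes 12 were tested, of which 4 were called higher and 2 lower with shAHR#2 (median log2 fold change 0.16; 32.6% and 33.2% of all tested genes), and 6 higher and 2 lower with shAHR#3 (median 0.33; 26.9% and 27.5% of all tested genes). The genes called lower, named after their values were seen, were FAT4 (log2 fold change -0.65) and CELSR2 (-0.30) with shAHR#2, and FAT4 (-0.17) and FAT3 (-0.57) with shAHR#3. PCDH7, a non-clustered protocadherin on another chromosome, was at 10.4, 10.2 and 9.93 CPM in controls, at 33.5, 33.8 and 32.6 CPM with shAHR#2 and at 25.6, 27.5 and 29.0 CPM with shAHR#3. It rose by 1.71 ± 0.08 (adjusted p = 4.42e-21) and 1.43 ± 0.08 (adjusted p = 3.68e-18) on the log2 scale. CELSR1, a cadherin of planar cell polarity, rose by 0.56 ± 0.05 (adjusted p = 1.36e-12) and 0.87 ± 0.05 (adjusted p = 2.60e-18). PCDH15, a cadherin of the tip links of hair cells, was low, with at most 20 counts in any library. It rose by 3.45 ± 0.59 (adjusted p = 3.64e-06) with shAHR#2 and was not called with shAHR#3 (1.55 ± 0.76, adjusted p = 0.0822), although it was called there without control replicate 1 (2.27) or without shAHR#3 replicate 2 (1.93).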

How the data were processed

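The authors made stranded mRNA libraries, sequenced from a single end, and used STAR for alignment to the GRCh38.p13 build; the submitters' processing notes also name FastQC, featureCounts and Subread. The deposited values are raw, whole-number counts per gene, not normalized. The annotation release and the strand setting are not given in the sources used here, so counts of overlapping genes are uncertain. Total counts ranged from 15991396 to 20374460 per library.

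Genes were kept by filterByExpr of edgeR 4.0.16 (minimum count 10, minimum total 15), scaled by TMM, and tested with the quasi-likelihood test (R 4.3.3) in 1 model of the 9 libraries with a mean per group. The fit was tested on simulated data. Positions are from GENCODE release 44 (60463 of 60605 identifiers matched) and promoters from RefSeq. PCDHB6 and PCDHB11 had no promoter entry among the beta genes. The members and lists were chosen with earlier results of these data known. Named genes were the 5 C-type genes, the 4 highest tested genes per class, the 3 largest called rises and falls per comparison, the 3 largest called changes per list, CTCF, SMCHD1 and the DNA methyltransferases, the flanking genes and AHR; other tested members were added so that each is accounted for. A result that the naming rule selects is left out or marked as selected. Some further list genes and neighbours were named after their values were seen. Alternatives were DESeq2 1.42.0, its size factors, no filter, a mean of at least 50 counts, only the groups compared, a replicate block, an absolute log2 fold change of at least 1, and leaving out each library. Constructs carry the labels' numbers, which differ from those of the study's methods.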

Additional observations from a re-analysis of the deposited data

Results flagged for a closer look

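For 11 protocadherins the effect of the hairpins differed by a direct test between them, each higher with shAHR#3 than with shAHR#2. They were 47.83% of the tested members, while 52.13% of the other tested chromosome 5 genes and 21.9% of all tested genes were called higher. On the log2 scale the difference was 2.94 for PCDHB7, 1.66 for PCDHB9, 1.10 for PCDHB10, 1.72 for PCDHB11, 2.18 for PCDHB12, 1.70 for PCDHB13 and 2.34 for PCDHB14. In the gamma cluster it was 1.54 for PCDHGA1, 1.67 for PCDHGB3, 1.73 for PCDHGA6 and 2.06 for PCDHGA7. Groups of 3 are too small to look for single outlying libraries.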

How the results depend on the processing

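The protocadherin counts kept their values or stayed within 1.5 times under DESeq2, its size factors, no filter and only the groups compared, where PCDHB7 did not pass the filter in the comparisons that include shAHR#2 and was not tested there. Correlations of deviations from the group mean were small between libraries of the same replicate number. They were all above 0, from 0.00314 to 0.0578 (9 pairs), against -0.068 to 0.0234 for different numbers (18 pairs). In 1 case, pLKO-GFP replicate 1 was nearer to shAHR#2 replicate 3 (0.0219) than to shAHR#2 replicate 1 (0.00484). Whether the replicate number marks something the libraries share was not tested. With the number as a replicate block the protocadherin counts were 15 lower and 0 higher with shAHR#2, 4 and 1 with shAHR#3, and 11 higher and 0 lower between the hairpins. With a mean of at least 50 counts only 8 members were tested. Then 7 were lower with shAHR#2, 0 higher and 3 lower with shAHR#3, and 5 higher between the hairpins, since fewer genes were tested. With an absolute log2 fold change of at least 1, members counted 13 lower with shAHR#2, 0 higher and 1 lower with shAHR#3, and 11 higher between the hairpins; the list genes called fell to 1 regulator, 1 partner and 2 other protocadherins with shAHR#2, to 0, 0 and 1 with shAHR#3, and to 0, 1 and 1 between the hairpins. Without a filter, 43 members were tested and PCDHB2 was also called lower with both hairpins. The share of all tested genes called is not given here for any of these alternatives, nor with 1 library left out. The shares of the main fit do not apply to them. These counts therefore show only how the calls of members and list genes moved.

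Leaving out 1 library at a time, members called lower with shAHR#2 ranged from 14 to 15 and higher from 0 to 1; with shAHR#3, from 4 to 5 lower and 1 to 1 higher; between the hairpins, from 11 to 12 higher and 0 to 0 lower. Called list genes ranged from 15 to 18 regulators, 14 to 16 partners and 6 to 7 other protocadherins with shAHR#2, from 16 to 17, 12 to 16 and 6 to 9 with shAHR#3, and from 12 to 15, 11 to 13 and 7 to 10 between the hairpins. Some values near 0, none called, changed sign. PCDHGC3 with shAHR#2 was at 0.0064 in DESeq2, 0.0019 with its size factors, 0.0006 with the replicate block, 0.0037 with only the groups compared. With 1 library left out, it ranged from -0.10 to 0.18 with shAHR#2 and from -0.046 to 0.24 between the hairpins. PCDHB11 with shAHR#3 ranged from -0.24 to 0.0009, PCDHGA4 between the hairpins from -0.082 to 0.27, PCDHGA2 there from -0.20 to 0.042, and DNMT3A with shAHR#3 from -0.054 to 0.026. PCDHGB7 ranged from -0.31 to 0.17 with shAHR#2, from -0.31 to 0.49 with shAHR#3 and from -0.23 to 0.53 between the hairpins. The call of DNMT1 between the hairpins (-0.06) was lost under most settings. The cause of these changes was not tested. Depth limits the 30 untested members.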

Other observations

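Pseudogenes of the clusters, which are not among the 53 genes, had few counts. PCDHB18P, between PCDHB14 and PCDHB15, had 0, 5 and 6 counts in controls, 0, 1 and 4 with shAHR#2 and 5, 3 and 4 with shAHR#3. PCDHB19P had 2, 3 and 4 counts in controls, 0, 0 and 1 with shAHR#2 and 0, 0 and 1 with shAHR#3. PCDHB17P, PCDHGB8P and PCDHGB9P had between 0 and 8 counts per library. None was tested.

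The long noncoding RNA AC005618.6, which lies just before PCDHGA1, was the other tested gene between the beta and gamma clusters besides TAF7. It had 11, 9 and 11 counts in controls, 3, 4 and 6 with shAHR#2 and 8, 8 and 19 with shAHR#3. The log2 fold change with shAHR#2 was -1.03 ± 0.53 (adjusted p = 0.0842), that with shAHR#3 was 0.12 ± 0.43 (adjusted p = 0.833), and it was not called. Both genes were singled out after their values were seen.

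Summed levels of 4 astrocyte markers, of which 2 were tested and AQP4 had 0 counts in every library, ranged from 10.8 to 13.4 CPM in controls, from 4.40 to 5.50 CPM with shAHR#2 and from 8.49 to 10.2 CPM with shAHR#3. The 6 neuronal markers together ranged from 5.22 to 8.29, from 4.24 to 5.25 and from 4.61 to 6.30 CPM, nearly all of it SYT1. The 4 mesenchymal markers summed to between 3562 and 3590 CPM in controls, between 6379 and 6564 CPM with shAHR#2 and between 5172 and 5218 CPM with shAHR#3, and the 8 epithelial markers to between 896 and 946, 1044 and 1088, and 1216 and 1306 CPM. The 3 receptor markers were between 60.1 and 75.7 CPM in all libraries, nearly all of it ERBB2. The part of these markers in the protocadherin values was not tested.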
